A study of Mus musculus with 50 samples.

Results

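Whole lung RNA of mice given ovalbumin (OVA) was compared with whole lung RNA of mice given phosphate-buffered saline (PBS), on 10 of the 50 arrays of a mouse airway series. These 10 arrays, 5 of each group, were chosen by their titles and are the only arrays of the smaller of the 2 array designs. All 10 samples were unamplified total RNA copied to cDNA, and all were hybridised against the same reference pool on spotted arrays with 2 channels. For these 10 arrays the sources used here give neither genotype, strain, sex or age of the animals nor the dose, route or timing of OVA or PBS. Comparisons further below use other arrays. These are lungs of IL-13 animals that were Stat6+/-, Stat6-/- or Stat6-/- with Stat6 in epithelium only. Tracheal perfusate of the same kinds of IL-13 animals and of OVA and PBS animals is used as well. No label says that each array came from a separate animal, so the p-values refer to the spread among these arrays alone, part of which may be technical. Replicate numbers are those of the titles (OVA 1, 2, 4, 5 and 6; PBS 1, 2, 3, 4 and 5), and values are listed in that order throughout.

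OVA is an egg-white protein that serves as a model allergen: animals sensitised to it and then exposed through the airways develop allergic inflammation driven by type 2 helper T cells. These cells secrete IL-4, IL-5 and IL-13, of which IL-4 and IL-13 act through the transcription factor Stat6. Known features of this response are eosinophils and alternatively activated macrophages in the tissue and a change of airway epithelium towards mucus-producing goblet cells. By its title the series asked which genes IL-13 changes by acting directly on airway epithelial cells. The labels of the OVA and PBS lungs name no genetic restriction of IL-13 signalling, and do not say whether the animals were sensitised.

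Each value is a log2 ratio of the sample to the reference pool, centred on the median of its array, and each difference is the OVA mean minus the PBS mean ± its standard error (SE) on the log2 scale. The direction of the ratio is not stated and was taken as sample over reference; it is likely, because Il13 itself was high on the IL-13 arrays of the other design. A gene was called where limma's moderated test gave an adjusted p under 0.05, with Benjamini-Hochberg adjustment over all 17047 probes tested. From 15693 to 17745 spots per array carried a ratio, and precision is limited by how few arrays there are. In whole tissue, fewer cells of a type and less RNA per cell cannot be told apart. Defining markers of alveolar, endothelial, club and ciliated cells had values in both groups. The surfactant gene Sftpc, which marks alveolar type 2 cells, could not be read. Its deposited ratio lay within 0.01 of 1 on all 10 arrays, and was exactly 1 on 4 of them. The club cell secretoglobin Scgb1a1 lay as near to 1 on 5 arrays and Cbr2, another club cell gene, on 7, so their differences cannot be read either.

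OVA replicate 5 stood apart from the other arrays. The interquartile range of its deposited log2 ratios was 2.12, against 0.67 to 1.22 on the other 9 arrays. Its Xist value was 2.94, against -0.92 to 1.42 on the others with a value, and its 2 probes of the Y-linked gene Eif2s3y stood at -3.25 (others -1.27 to 1.97) and -2.25, where OVA replicate 2 read -2.04. The Y-linked genes Kdm5d and Uty, at -0.21 and -1.16, lay within the range of the other arrays. Between arrays of a group the correlation over probes ranged from 0.274 to 0.725 (median 0.489), and between groups from 0.19 to 0.567 (median 0.344). Without it the list counts given below for eosinophil, mucous, arginine, Fc receptor, MHC class II, protease, complement, acute phase, matrix, lipid, lymphocyte activation and skeletal muscle genes were the same numbers, and lists with 0 calls kept 0 except for the heat shock list. The other counts are given with their lists.

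Of 17047 probes, 299 were called (1.75%). Of these, 256 were higher in OVA (1.5%) and 43 were lower (0.252%), so 85.6% of the called probes were higher. Differences of more than 2 on the log2 scale, which is over 4-fold, were found for 100 called probes in the higher direction and for 3 in the lower. The 5 largest rises among called genes were those of Clca1, Arg1, Atp2a1, Rnase2a and the chemokine Ccl8. Clca1 is a secreted goblet cell protein and Arg1 the arginase of alternatively activated macrophages. Atp2a1 is a calcium pump of skeletal muscle and Rnase2a a ribonuclease of the eosinophil-associated family. Without OVA replicate 5 there were 308 calls, 241 higher and 67 lower, of which 242 were among the 299. The count fell to 109 without OVA replicate 1, 105 without PBS replicate 2, 179 without PBS replicate 3, 117 without PBS replicate 4 and 115 without PBS replicate 5. On the values as deposited, with no centring, it was 36 (97.2% higher), and after quantile normalization it was 258 (69.8% higher). Of 101 named probes that were called, 25 kept the call on the values as deposited, 63 after scaling and 69 after quantile normalization. With arrays left out, 43 kept the call with each of the 10 arrays left out, 1 (Mcpt8) kept it in the 7 fits that could test it, and 57 lost it in at least 1 fit, where their adjusted p reached between 0.0513 and 0.113.

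**Figure D1:**
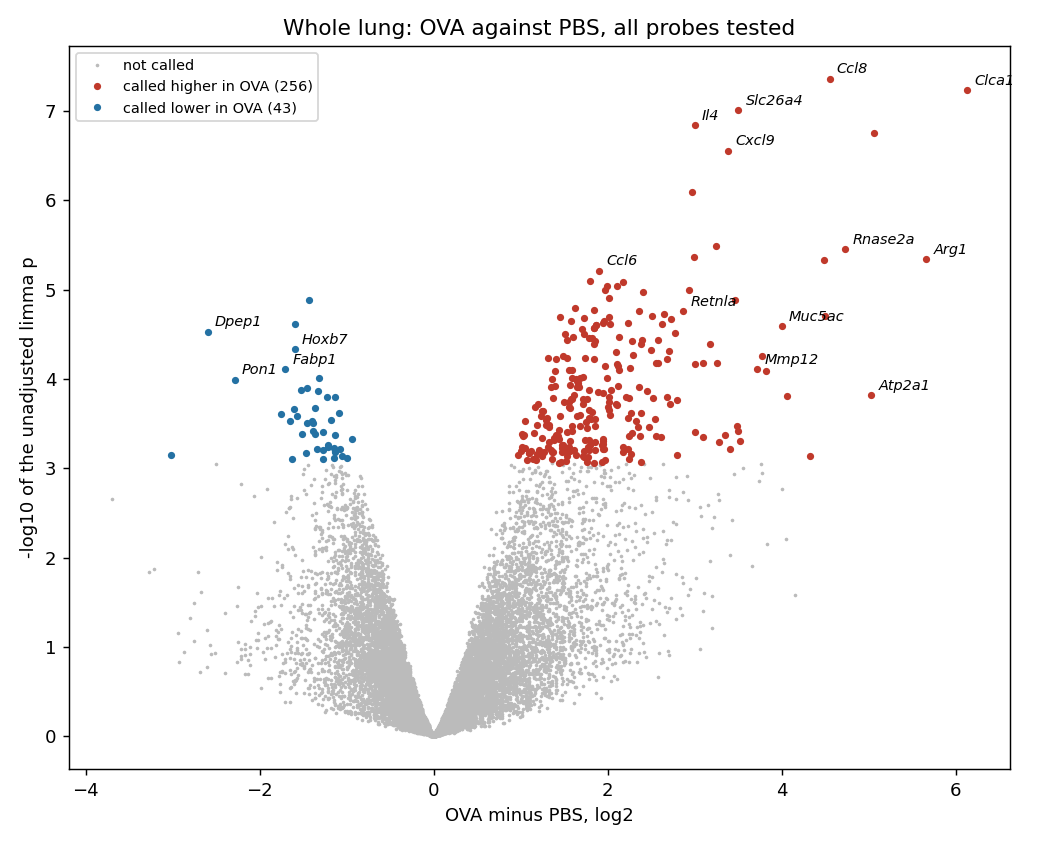
Difference between OVA and PBS (x axis, log2) against the unadjusted limma p (y axis, -log10) for 17047 probes of whole lung, 5 arrays per group. Red points are the 256 probes called higher in OVA, blue points the 43 called lower and grey points the rest. Clca1 and Ccl8 lie at the upper right, and the called points on the left reach less far than those on the right.

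Mucous cell genes were among the largest rises. Clca1 rose 69.8-fold, the gel-forming mucin Muc5ac 15.9-fold and Slc26a4 (pendrin, an anion exchanger of the airway surface) 11.3-fold. Of the 16 genes of the mucous cell list that were tested, 8 rose, 0 fell and 8 were not called, with a median difference of 1.23 against 0.03 over all probes. Its mean level lay between 1.42 and 2.16 on the OVA arrays and between -0.53 and 0.33 on the PBS arrays. Over all probes 1.5% were called higher. This list and those below were chosen with earlier results of these data known. Their counts and medians beside those of all probes are therefore description and no test.

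Clca1 read 5.34, 5.71, 5.11, 4.73 and 5.84 on the OVA arrays, and -2.25, 0.59, -0.31, -0.95 and -0.97 on the PBS arrays. The lowest OVA value was thus far above the highest PBS value, and the difference was 6.13 ± 0.47 (limma adjusted p = 0.000502). Muc5ac gave 3.54, 4.68, 3.93, 5.69 and 6.06 with OVA and 0.41, 1.1, 2.16, 0.52 and -0.27 with PBS, a difference of 4.00 ± 0.57 (limma adjusted p = 0.00998) with no overlap. Muc5b, the other gel-forming mucin of the airways, rose less, by 1.66 ± 0.28 (OVA mean 1.41 ± 0.35, PBS mean -0.25 ± 0.46, SD, n = 5 each; limma adjusted p = 0.0188).

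Slc26a4 stood at 3.46, 3.5, 3.34, 4.39 and 3.90 in the OVA lungs and at 0, 0.72, 0.26, -0.28 and 0.37 in the PBS lungs, a difference of 3.5 ± 0.28 (limma adjusted p = 0.000563). Agr2, a disulfide isomerase of the endoplasmic reticulum needed to make mucins, rose by 1.99 ± 0.25, and Tff2, a trefoil peptide secreted with mucus, by 2.29 ± 0.36. Bpifb1, a secreted protein of airway epithelium, rose by 2.23 ± 0.32. In each of these 4 genes the 5 OVA values lay above the 5 PBS values, as was the case for 4.47% of all probes tested. Pigr, the receptor that carries IgA across epithelium, rose by 1.23 ± 0.23 from a PBS mean of 1.03 ± 0.29 (SD, n = 5), but held its call in only 3 of the 10 fits that left out an array. The lectin Itln1 had a difference of 3.76 ± 0.83 that was not called (limma adjusted p = 0.0503), and Tff1 one of -0.25 ± 0.24. With single arrays left out, between 6 and 8 mucous genes were called.

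Among 23 tested genes of ion and fluid transport, 3 rose (Slc26a4, Fxyd4 and Slc5a1), 0 fell, and the median difference was -0.19. Fxyd4, a small regulator of the sodium pump, read 2.79, 0.81, 1.24, 2.65 and 2.95 with OVA and -1.07, -0.69, 0.58, -0.39 and -0.69 with PBS (difference 2.54 ± 0.48). The sodium-glucose cotransporter Slc5a1 rose by 1.32 ± 0.26. These 2 calls were lost in 7 and 8 of the 10 fits with an array left out, the list had 2 calls without OVA replicate 5, and Slc26a4 alone was called without OVA replicate 1 or 6 or PBS replicate 1, 2, 4 or 5. The epithelial sodium channel subunit Scnn1b had a difference of -1.13 ± 0.28 that was not called (limma adjusted p = 0.076).

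**Figure D2:**
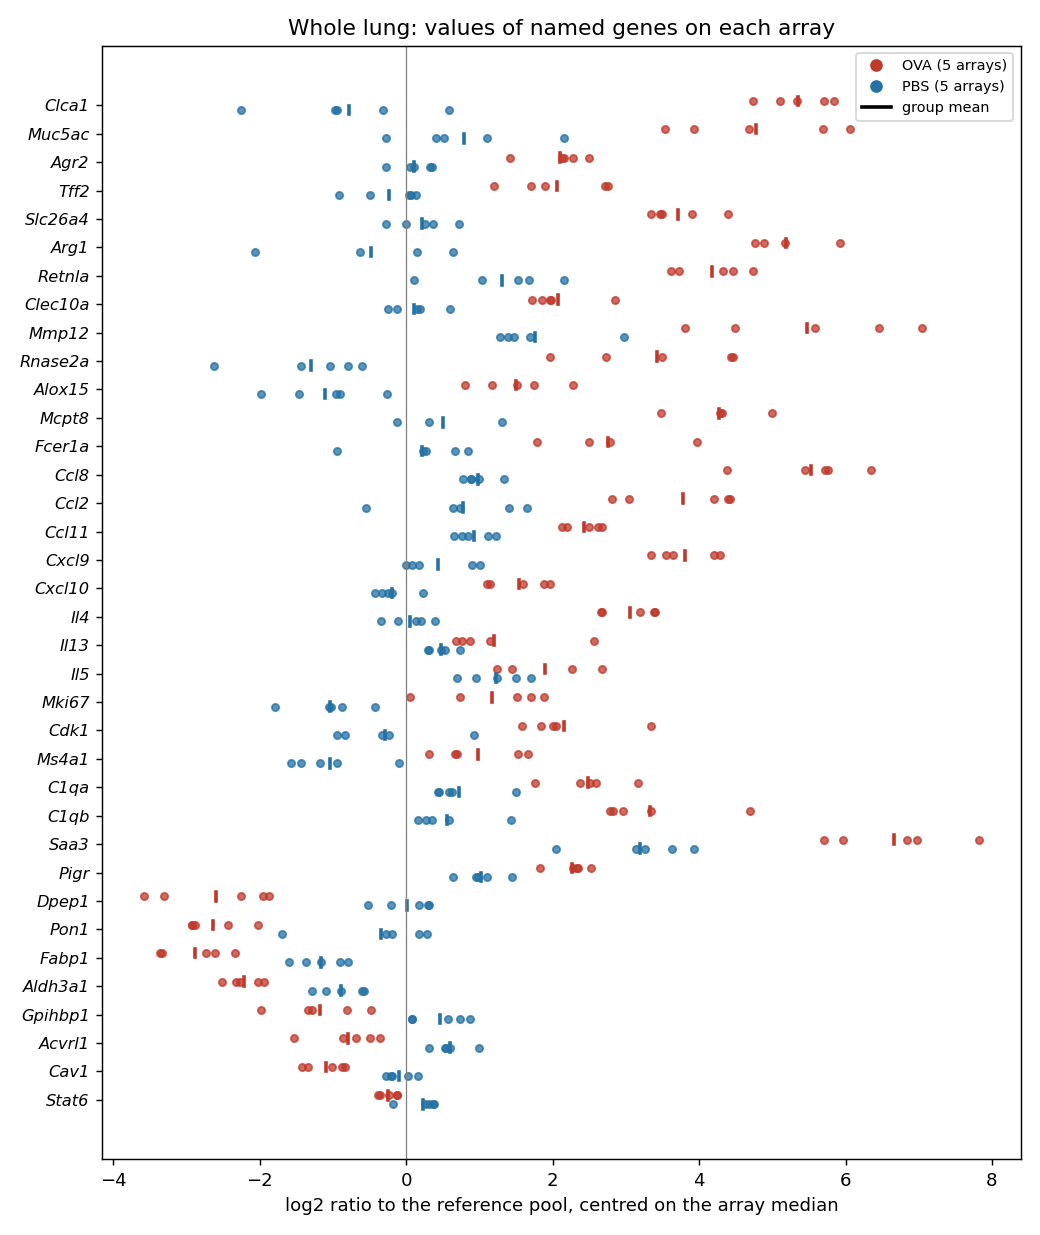
Centred log2 ratio to the reference pool (x axis) of 36 genes on each of the 10 whole lung arrays. Red points are OVA arrays, blue points PBS arrays, and the vertical bars group means. Clca1, Arg1 and Ccl8 show no overlap between the groups, Il13 and Il5 overlap, and the lowest rows hold genes with lower OVA values.

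Several genes that IL-4 and IL-13 induce in macrophages rose. Of 19 tested genes of the alternative activation list, 6 rose (Arg1, Retnla, Alox15, Ccl22, Clec10a and Slc7a2), 0 fell, and the median difference was 1.00. Without OVA replicate 5, 8 were called, and with any other single array left out between 5 and 8. Chil3, Chil4, Ccl24 and Il4ra had no tested probe.

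Arg1 splits arginine into urea and ornithine and is the textbook marker of this macrophage state. It had a value on 4 arrays of each group: 4.89, 4.77, 5.92 and 5.17 for OVA replicates 1, 2, 5 and 6, and 0.15, -0.63, 0.64 and -2.06 for PBS replicates 1, 2, 3 and 5. The difference of 5.66 ± 0.57 is a 50.7-fold rise (limma adjusted p = 0.00659). Retnla (Relm-alpha) is a secreted protein of macrophages and epithelium. It was already above the array median in PBS lungs, at 2.16, 1.53, 0.11, 1.04 and 1.68, and reached 3.62, 4.32, 4.74, 4.46 and 3.72 with OVA, a 7.3-fold rise (2.87 ± 0.39, limma adjusted p = 0.00998). The call was lost after scaling and after quantile normalization (limma adjusted p = 0.151 and 0.0973). Clec10a, a lectin of macrophages and dendritic cells, rose by 1.96 ± 0.28. Slc7a2, a transporter that brings arginine into the cell, rose by 1.79 ± 0.36, a call kept in 2 of the 10 fits with an array left out. Gatm, which uses arginine for creatine synthesis, rose by 2.93 ± 0.38 and brought the arginine and polyamine list to 3 of 19 genes called, all higher. Cd5l, a secreted macrophage protein, differed by 2.63 and was not called (limma adjusted p = 0.0503). Asl, an enzyme of arginine synthesis, differed by -0.03 ± 0.23.

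Of the type 2 cytokines themselves, Il4 was called and Il13 and Il5 were not. Il4 read 2.66, 2.67, 3.38, 3.40 and 3.19 with OVA and 0.39, -0.34, 0.20, 0.14 and -0.11 with PBS, an 8.01-fold rise (3.00 ± 0.25, limma adjusted p = 0.000602) with no overlap. Il13 read 0.68, 0.87, 1.14, 2.57 and 0.76 with OVA and 0.74, 0.53, 0.48, 0.30 and 0.31 with PBS. The groups overlapped, and the difference of 0.73 ± 0.36 was not called (limma adjusted p = 0.351). Il5, the growth factor of eosinophils, differed by 0.68 ± 0.36 (limma adjusted p = 0.397), again with overlap. The decoy receptor Il13ra2 differed by 0.89 ± 0.33 (limma adjusted p = 0.219) and Stat6 by -0.47 ± 0.20 (limma adjusted p = 0.288). Il6, an inflammatory cytokine of many cells, rose by 1.79 ± 0.30. In all, 2 of 20 genes of the list rose and 0 fell; the count was 3 without OVA replicate 5 and 1, Il4, without OVA replicate 1 or PBS replicate 2 or 4.

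Stat6 binds DNA motifs in which TTC and GAA are separated by 4 bases of any kind, and other STAT proteins bind the form with 3. Both were searched on both strands in the RefSeq promoter windows (GRCm38.p6, 250 bases before to 50 after a start site) of the genes tested. Each motif reads the same on both strands, a gene may have several windows, and a window may hold both motifs. At least 1 motif of the Stat6 form lay in the windows of 21 of 176 genes called higher that had a window (11.9%), of 3 of 29 called lower (10.3%) and of 714 of 10366 genes tested (6.89%). For the form with 3 bases between, the shares were 9.66%, 10.3% and 8.53%. The shares cover all chromosomes, but windows on 1 chromosome were left out when sites of single genes were listed. In the remaining windows, 7 of the genes named here that were called held the Stat6-type motif. For each of them 60 bases around the motif are printed on the strand of the gene to show it in capitals. A match describes letters only. Clca1 had no entry in the promoter table.
Il4 (chr11:53618798-53618857, minus strand): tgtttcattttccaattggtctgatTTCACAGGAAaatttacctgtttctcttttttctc
Retnla (chr16:48842439-48842498, plus strand): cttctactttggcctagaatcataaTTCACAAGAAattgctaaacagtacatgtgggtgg
Fcer2a (chr8:3690995-3691054, minus strand): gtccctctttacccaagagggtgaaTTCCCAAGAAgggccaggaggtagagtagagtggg
Sprr2a1 (chr3:92215606-92215665, plus strand): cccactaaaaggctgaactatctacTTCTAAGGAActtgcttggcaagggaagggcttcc
Tbxas1 (chr6:38918840-38918899, plus strand): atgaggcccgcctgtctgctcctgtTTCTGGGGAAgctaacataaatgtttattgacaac
Gbp3 (chr3:142560136-142560195, plus strand): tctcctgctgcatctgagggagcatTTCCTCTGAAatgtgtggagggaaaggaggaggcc
Top2a (chr11:99024178-99024237, minus strand): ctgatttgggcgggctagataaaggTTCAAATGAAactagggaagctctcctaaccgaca
The first base of the motif lay 167 bases before the start of Il4, 145 before Retnla, 168 before Fcer2a, 204 before Sprr2a1, 121 before Tbxas1, 195 before Gbp3 and 23 before Top2a. Of the 7, Il4 and Retnla are those named above as genes of the type 2 response; the others are a receptor for IgE, an epithelial envelope protein, thromboxane synthase, an interferon-inducible GTPase and a topoisomerase, described with their groups below.

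Some genes of the eosinophil list and of the mast cell and basophil list rose. Of 7 tested genes of the eosinophil list, 2 rose and 0 fell, with a median difference of 1.62. These 2 calls stood with each single array left out. The other 5, the granule protein genes Epx and Prg2 among them, were not called. Rnase2a is a ribonuclease of the eosinophil-associated family, whose close copies these probes may not separate. It read 2.73, 3.5, 1.97, 4.44 and 4.47 with OVA and -1.04, -0.61, -1.44, -0.80 and -2.63 with PBS (4.73 ± 0.55, 26.5-fold). Alox15, a lipoxygenase of eosinophils and macrophages, read 1.52, 1.74, 1.17, 2.28 and 0.80 against -0.26, -1.47, -0.90, -1.98 and -0.96 (2.62 ± 0.37). All OVA values of both genes lay above all PBS values. Ccr3, the eotaxin receptor of eosinophils, differed by 2.86 ± 0.68 and was not called (limma adjusted p = 0.0708), and Siglecf, a surface lectin of eosinophils and alveolar macrophages, by -0.54 ± 0.33. The mean level of the eosinophil list lay between 1.04 and 1.40 in OVA lungs and between -0.81 and -0.09 in PBS lungs.

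Mcpt8, a basophil granule protease, had values of 4.28, 4.31, 5.00 and 3.48 on 4 OVA arrays and 0.31, -0.13 and 1.31 on 3 PBS arrays, a 13.6-fold rise (3.77 ± 0.48, limma adjusted p = 0.0135). This call was lost on the values as deposited, after scaling and after quantile normalization (limma adjusted p = 0.0666, 0.129 and 0.0805). Fcer1a, the IgE-binding chain of the high-affinity IgE receptor on mast cells and basophils, rose by 2.55 ± 0.49, a call kept in 3 of 10 fits. They were the 2 genes of 10 tested in the mast cell and basophil list that were called. Cma1, a mast cell chymase, differed by 0.49 ± 0.29. Cpa3, the mast cell carboxypeptidase, differed by 2.94 ± 1.11 with 1 OVA array at 7.24 and overlap between the groups. Gata2, the list member with the lowest difference, stood at -1.05 ± 0.29 (limma adjusted p = 0.0975). None of these was called, and of the 10 differences in the list 8 were above 0 and 2 below 0. With PBS replicate 2, 4 or 5 left out the list had 0 calls, partly because Mcpt8 could not then be tested. It had 1 call without OVA replicate 1, 2 or 5 or PBS replicate 3, and 3 without OVA replicate 4.

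Among 20 genes of eicosanoid synthesis 3 rose, Alox15, Tbxas1 (thromboxane synthase, 2.65 ± 0.37) and Hpgds (the prostaglandin D synthase of mast cells and type 2 helper T cells, 1.73 ± 0.37), and 0 fell. The call of Hpgds did not stand in any of the 10 fits that left out an array, and without OVA replicate 5 the list had 2 genes higher and 1 lower. Hpgd, which degrades prostaglandins, differed by -1.16 ± 0.26 and was not called (limma adjusted p = 0.0517).

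Several chemokines rose. Of 30 tested, 11 rose, 0 fell and 19 were not called, with a median difference of 1.36; between 10 and 13 were called with single arrays left out, and 12 without OVA replicate 5. Ccl8, a ligand of Ccr8 in the mouse that draws type 2 cells, read 5.72, 5.44, 5.76, 4.38 and 6.35 with OVA and 1.34, 0.89, 0.88, 0.77 and 1.00 with PBS, a 23.5-fold rise (4.55 ± 0.34, limma adjusted p = 0.000502). Ccl11 (eotaxin, which attracts eosinophils) read 2.13, 2.50, 2.62, 2.68 and 2.20 against 1.22, 0.76, 1.12, 0.85 and 0.65, a smaller rise of 1.51 ± 0.22, also without overlap. Its call was lost on the values as deposited, after scaling and after quantile normalization (limma adjusted p = 0.123, 0.144 and 0.16). The monocyte chemokine Ccl2 rose by 3.00 ± 0.48 and its relative Ccl12 by 1.84 ± 0.25. Ccl6 and Ccl9, macrophage chemokines, rose by 1.90 ± 0.23 and 1.89 ± 0.33, Ccl4 by 3.09 ± 0.50 and Ccl22, a ligand for Ccr4 on type 2 helper T cells, by 2.11 ± 0.27. Ccl17, the other ligand of Ccr4, differed by 0.42 ± 0.45 and was not called. Ccl12 (limma adjusted p = 0.153, 0.0572 and 0.0673) and Ccl9 (limma adjusted p = 0.0937, 0.121 and 0.0739) lost their calls in the same settings as Ccl11. Ccl2 lost its call on the values as deposited and after scaling, and Ccl6 after scaling and after quantile normalization. Ccl22 lost its call on the values as deposited, while Ccl8 and Ccl4 kept theirs in each of these settings.

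The chemokines that bind Cxcr3 and are known as interferon-gamma targets rose as well. Cxcl9 read 3.64, 4.21, 3.35, 4.29 and 3.55 with OVA and 0.90, 0, 0.18, 1.01 and 0.08 with PBS (3.38 ± 0.30, 10.4-fold, limma adjusted p = 0.000792). Cxcl10 rose by 1.73 ± 0.25 and Cxcl11 by 2.73 ± 0.38, both without overlap. Ccl3 had a difference of 3.74 ± 0.88 that was not called (limma adjusted p = 0.0612), with OVA values from 3.12 to 7.96. Cx3cl1, a chemokine of endothelium and epithelium, had a difference of -0.66 ± 0.31 and was not called.

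Of 15 tested macrophage genes 6 rose (Adgre1, Cd68, Ctss, C1qa, C1qb and C1qc) and 0 fell, with a median difference of 1.6. The count was 7 without OVA replicate 5, and 3 without OVA replicate 1 or PBS replicate 4. The list's mean level lay between 1.30 and 2.12 on OVA arrays and between 0.02 and 0.54 on PBS arrays, and the highest value in each group belonged to OVA replicate 5 and PBS replicate 1. The part of macrophage content in the chemokine and alternative activation values was not tested.

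Adgre1 (a macrophage surface receptor) rose by 2.12 ± 0.36 and Cd68, a lysosomal glycoprotein, by 1.68 ± 0.33. With single arrays left out Adgre1 kept its call in 8 of 10 fits and Cd68 in 2. Cd68 also lost its call on the values as deposited, after scaling and after quantile normalization (limma adjusted p = 0.0698, 0.122 and 0.142). Adgre1 lost its call in the first 2 of these settings (limma adjusted p = 0.0735 and 0.0596). The 3 chains of C1q, which starts the classical complement pathway and is made by macrophages, rose together: C1qa by 1.76 ± 0.31, C1qb by 2.77 ± 0.41 and C1qc by 2.51 ± 0.35. C1qb read 2.96, 3.35, 2.83, 4.70 and 2.78 with OVA and 1.43, 0.27, 0.16, 0.59 and 0.35 with PBS. Other complement genes called were the receptor C3ar1 (2.10 ± 0.38) and factor B, Cfb (1.84 ± 0.27), which made 5 of 16 higher and 0 lower. Properdin, Cfp, differed by -0.66 ± 0.77. The calls of C1qb, C1qc and Cfb stood with each array left out, and those of C1qa and C3ar1 in 5 of 10 fits. Without OVA replicate 1 or PBS replicate 2, 3, 4 or 5 the list had 3 calls. Cfb lost its call on the values as deposited, after scaling and after quantile normalization (limma adjusted p = 0.073, 0.14 and 0.149). C1qa lost its call in the same 3 settings (limma adjusted p = 0.0523, 0.123 and 0.123).

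Among proteases, 5 of 23 rose and 0 fell. Mmp12, the macrophage elastase, read 5.59, 3.81, 4.49, 7.05 and 6.46 with OVA and 2.97, 1.39, 1.69, 1.47 and 1.28 with PBS, a 13.2-fold rise (3.72 ± 0.61, limma adjusted p = 0.0151). The cathepsins and related lysosomal enzymes Ctss (1.85 ± 0.28), Ctse (1.77 ± 0.38), Lgmn (1.45 ± 0.20) and Ctsc (1.27 ± 0.27) rose by less. Ctsk had a difference of 1.61 ± 0.36 and missed the threshold (limma adjusted p = 0.0505). The call of Ctsc was kept in 1 of 10 fits and that of Ctse in 4, and the list had 3 calls without OVA replicate 1 or PBS replicate 2, 3, 4 or 5. Timp1, an inhibitor of these metalloproteases, had values on 3 OVA and 4 PBS arrays and differed by 0.04 ± 0.75.

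**Figure D3:**
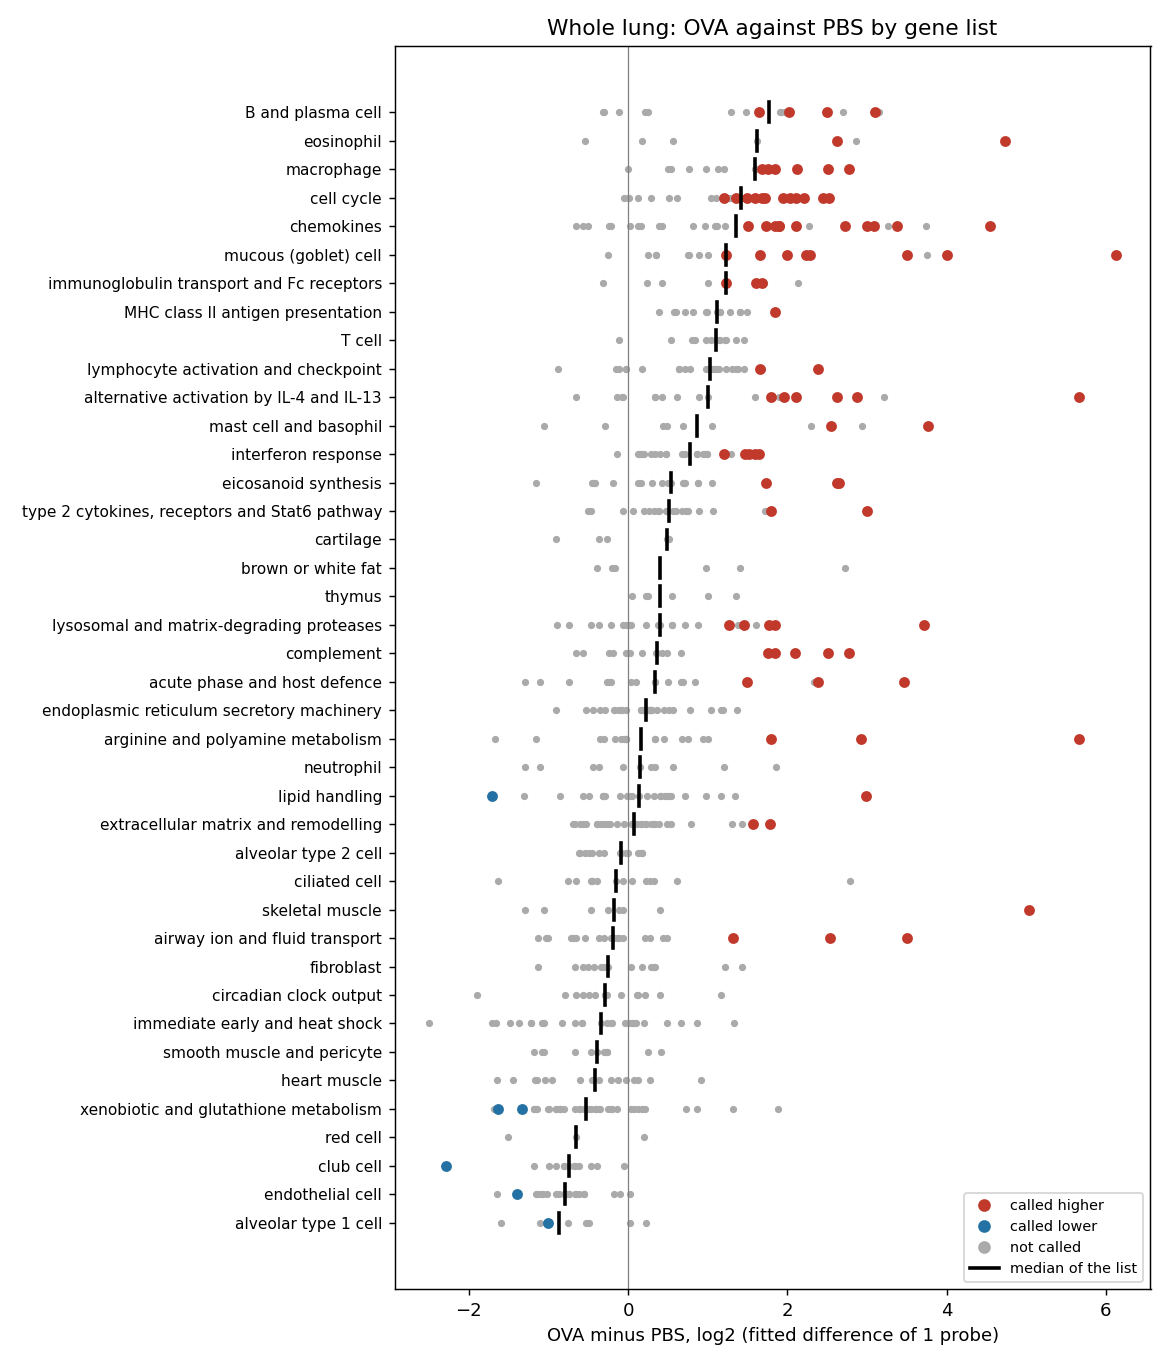
Fitted difference between OVA and PBS (x axis, log2) of every tested probe of 40 gene lists, ordered by the list median (black bar). Red points were called higher, blue points lower and grey points were not called. The B cell, eosinophil, macrophage and cell cycle lists lie highest, and the club, endothelial and alveolar type 1 cell lists lowest.

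Some genes of the B lineage and of antibody handling rose. Of 15 tested B and plasma cell genes 4 rose and 0 fell, with a median difference of 1.77. Ms4a1, a surface antigen of B cells, read 1.53, 1.66, 0.67, 0.70 and 0.31 with OVA and -0.10, -1.43, -0.95, -1.57 and -1.18 with PBS (2.02 ± 0.36). Irf4, a transcription factor of plasma cells and of IL-4-activated cells, rose by 2.50 ± 0.38. Pou2af1, a B cell transcriptional coactivator, rose by 3.10 ± 0.62, with the lowest OVA value of 1.02 below the highest PBS value of 1.19. For Ighm, the heavy chain of IgM, 1 probe was called (1.64 ± 0.35) and the other was not (3.15 ± 0.81, limma adjusted p = 0.0823). The number of calls was 3 without OVA replicate 5 and ranged from 1 to 6 over all single arrays; it was 2 without OVA replicate 2 or PBS replicate 3, and 1, Irf4, without OVA replicate 1 or PBS replicate 2, 4 or 5.

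The low-affinity IgE receptor Fcer2a rose by 1.61 ± 0.34 and Fcgr1, the high-affinity IgG receptor, by 1.68 ± 0.31, which with Pigr made 3 of 9 genes of antibody transport and Fc receptors. The IgG receptor of endothelium, Fcgrt, differed by 0.42 ± 0.23. This list had 3 calls without OVA replicate 5, 2 without PBS replicate 1, 0 without OVA replicate 2 or PBS replicate 4 or 5, and 1 with any other array left out. Of 13 T cell genes 0 were called by limma's test over all probes (1 without OVA replicate 6). The median was 1.10, and 12 of 13 differences were above 0, against 8836 of all 17047 probes. Cd28 differed by 1.45 ± 0.39, Cd8a by 1.36 ± 0.47 and Gata3 by -0.12 ± 0.27. The T cell list lay between -0.42 and 0.46 on OVA arrays and between -1.42 and -0.36 on PBS arrays, which overlapped at 1 array of each group. Of 24 genes of lymphocyte activation 2 rose, Il21r (the IL-21 receptor, 1.66 ± 0.28) and Tnfrsf9 (a costimulatory receptor, 2.38 ± 0.52 at 1 probe and 1.31 ± 0.82, not called, at the other). The lymphocyte activation list had 0 calls without OVA replicate 1 or PBS replicate 2 or 5, 2 without OVA replicate 5 and 1 otherwise. In the MHC class II list all 15 differences were above 0, against 8836 of all 17047 probes, with a median of 1.12, and Ctss alone was called.

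Of 35 cell division genes tested, 12 rose and 0 fell, where 1.5% of all probes were called higher. The median was 1.42, and 34 differences were above 0, against 8836 of all 17047 probes. Mki67, the proliferation marker, read 1.51, 1.88, 1.71, 0.05 and 0.74 with OVA and -0.43, -1.05, -1.03, -1.79 and -0.87 with PBS (2.21 ± 0.39, 4.63-fold). Cdk1, the kinase that drives entry into mitosis, rose by 2.45 ± 0.43, the mitotic kinases Aurka by 2.11 ± 0.34 and Plk1 by 1.72 ± 0.29, and the cyclins Ccna2 by 1.68 ± 0.28 and Ccnb2 by 1.59 ± 0.26. Top2a, which untangles replicated DNA, rose by 2.03 ± 0.38, and the replication factors Cdc45, Mcm2 and Mcm3 by 1.94 ± 0.28, 1.49 ± 0.31 and 1.36 ± 0.23. Kif20a and Prc1, which act in cytokinesis, rose by 2.52 ± 0.43 and 1.20 ± 0.22. Kif11, a spindle motor, differed by -0.05 ± 0.24. The count was 14 without OVA replicate 5, and fell to 5 without OVA replicate 1, 3 without PBS replicate 2, 7 without PBS replicate 4 and 5 without PBS replicate 5. Cell division itself was not measured, and the labels do not say which cells this RNA came from.

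Interferon response genes had a median difference of 0.78 over 26 probes, of which 25 were above 0, against 8836 of all 17047 probes. Of 25 genes 5 rose: the GTPases Iigp1 (1.65 ± 0.28), Tgtp1 (1.59 ± 0.27) and Gbp3 (1.47 ± 0.31), the peptide transporter Tap1 (1.52 ± 0.33) and the antiviral Mx1 (1.21 ± 0.26). Iigp1 read 0.70, 0.36, 1.05, 1.00 and 1.21 against -0.47, -0.96, -1.12, -0.17 and -1.22, with no overlap. Rsad2, another antiviral gene, differed by -0.14 ± 0.60. The calls of Tap1 and Mx1 were kept in 1 of 10 fits each and that of Gbp3 in 2; the list had 4 calls without OVA replicate 5, 3 without OVA replicate 2, 4 or 6, 2 without OVA replicate 1 or PBS replicate 1, 3 or 4, 1 without PBS replicate 5 and 0 without PBS replicate 2.

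Host defence genes known from the acute phase were called in 3 of 17, all higher. These calls stood with each array left out, but all 3 were lost on the values as deposited, where Saa3 differed by 3.30 (limma adjusted p = 0.0523). After scaling Saa3 differed by 1.79 (limma adjusted p = 0.327) and Serpina3n by 1.08 (limma adjusted p = 0.141), and after quantile normalization Serpina3n differed by 0.98 (limma adjusted p = 0.15). Saa3, a serum amyloid made in the lung, was high already in PBS lungs (3.93, 3.26, 3.14, 2.04 and 3.63) and reached 6.84, 6.97, 5.71, 5.97 and 7.82 with OVA, an 11-fold rise (3.46 ± 0.46, limma adjusted p = 0.00981). Reg3g, an antibacterial lectin of epithelium, rose by 2.39 ± 0.36, and the protease inhibitor Serpina3n by 1.49 ± 0.23. The neutrophil-borne S100a9 differed by -1.30 ± 0.46 and haptoglobin, Hp, by -0.74 ± 0.28, and neither was called.

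In the matrix and remodelling list 2 of 31 genes rose (Tgfbi alone in 7 of the 10 fits with an array left out): Tgfbi, a matrix protein induced by TGF-beta, by 1.78 ± 0.27, and the proteoglycan Vcan by 1.57 ± 0.32 at 1 probe, with 0.49 ± 0.56 (not called) at the other. The fibrillar collagen Col3a1 had a difference of 1.43 ± 0.41 that was not called (limma adjusted p = 0.11). Of 27 genes of lipid handling, Ch25h, which makes an oxysterol that guides lymphocytes, rose by 2.99 ± 0.33, and Fabp1 fell by 1.71 on the log2 scale (SE 0.28). Lpl, lipoprotein lipase, differed by 0.14 ± 0.33.

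**Figure D4:**
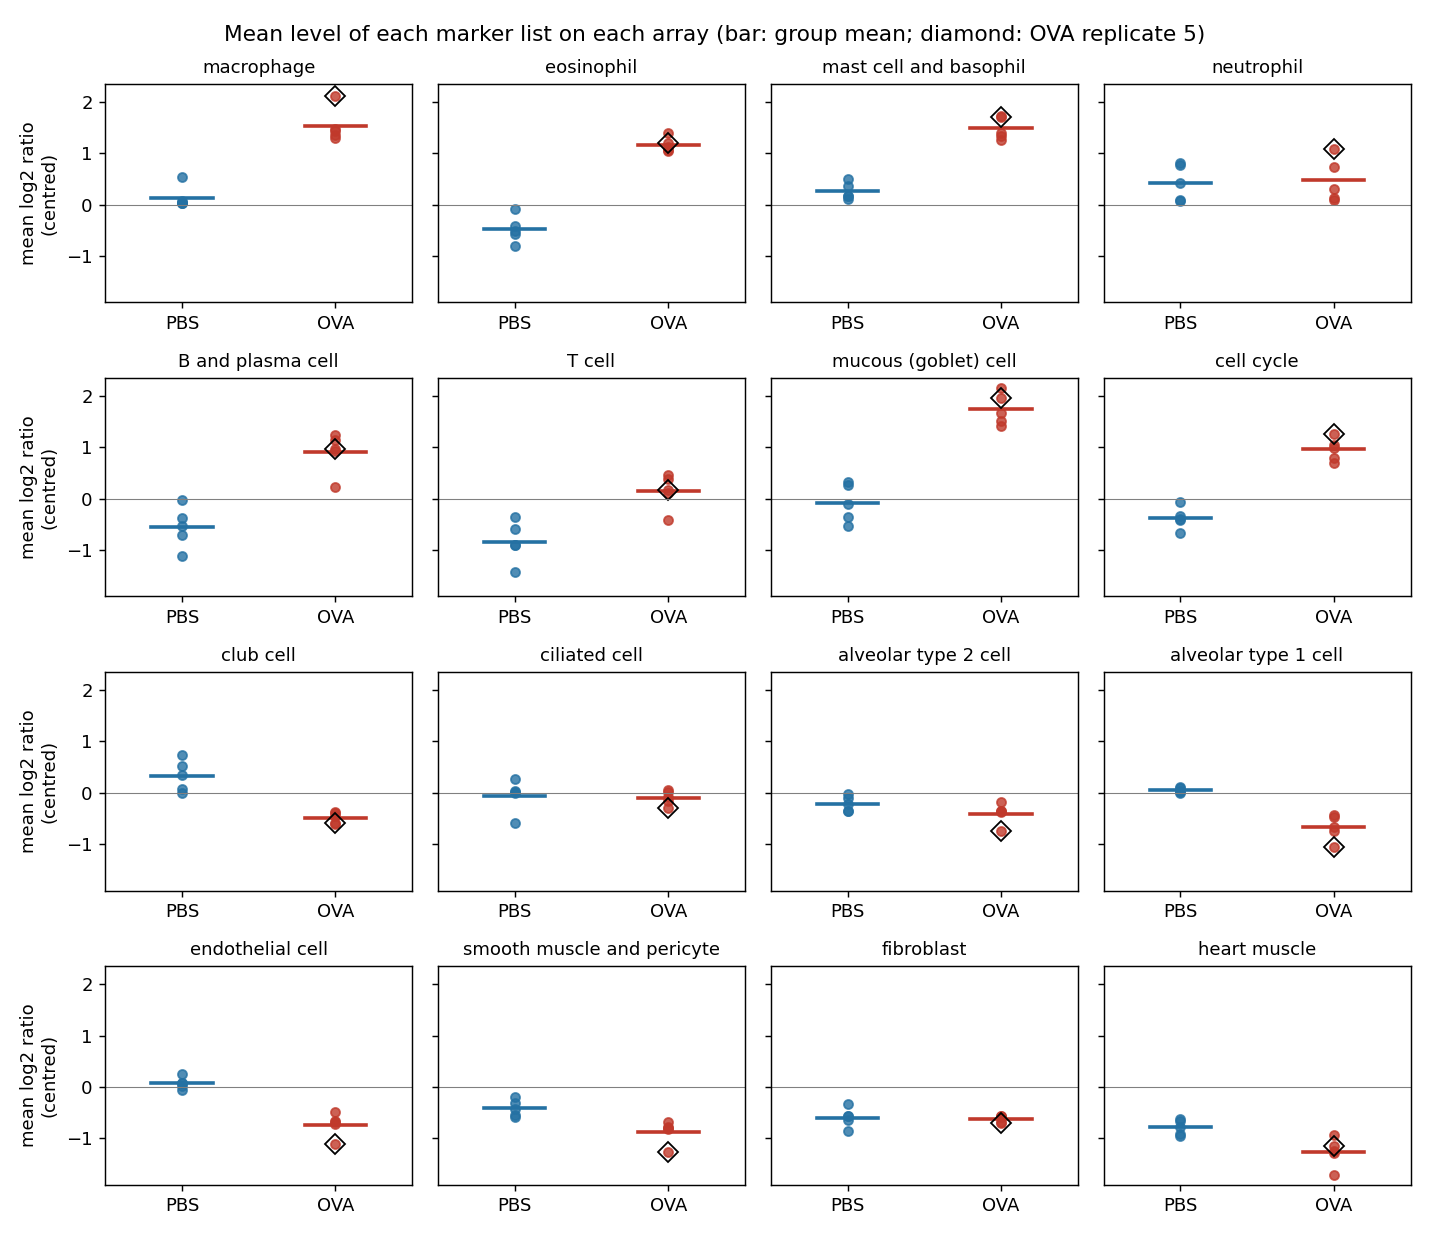
Mean centred log2 ratio (y axis) of 16 marker lists on each array, PBS in blue and OVA in red, with bars for group means; a diamond marks OVA replicate 5. The mucous, macrophage, eosinophil and cell cycle lists are higher on every OVA array than on any PBS array. The club, endothelial, alveolar type 1 and smooth muscle cell lists are lower on every OVA array than on any PBS array.

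Most club, endothelial and alveolar type 1 cell genes had lower values in OVA lungs, with few calls. All 13 club cell probes (Scgb1a1 and Cbr2 among them), 22 of 23 endothelial probes and 8 of 10 alveolar type 1 probes had differences below 0, against 8211 of all 17047 probes, and their medians were -0.74, -0.79 and -0.87. The club list lay between -0.60 and -0.37 on OVA arrays and between 0 and 0.73 on PBS arrays. The endothelial list lay between -1.12 and -0.48 against -0.06 and 0.25, and the alveolar type 1 list between -1.06 and -0.43 against -0.01 and 0.11. OVA replicate 5 gave the lowest endothelial and alveolar type 1 values. The macrophage list was higher on the same OVA arrays, by the levels given above, and the part of leukocyte RNA in these values was not tested.

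In each of these lists 1 gene was called. Pon1, a paraoxonase of club cells and serum, read -2.88, -2.44, -2.93, -2.92 and -2.02 with OVA and -0.20, 0.17, -0.28, 0.29 and -1.70 with PBS, a 4.91-fold fall (-2.29 ± 0.39, limma adjusted p = 0.0173). Its PBS replicate 5 lay near the OVA values without overlap. Acvrl1, an endothelial receptor of the BMP and TGF-beta family, read -0.69, -0.36, -0.50, -1.53 and -0.86 against 1.00, 0.31, 0.60, 0.54 and 0.53 (-1.39 ± 0.27). Cav1, the coat protein of caveolae in endothelium and alveolar type 1 cells, read -1.34, -1.02, -0.87, -1.42 and -0.84 against 0.16, -0.21, -0.27, 0.02 and -0.19 (-1 ± 0.22). With single arrays left out Pon1 kept its call in 8 of 10 fits, Acvrl1 in 3 and Cav1 in 1. Without OVA replicate 5 there were 2 calls in the club list, 2 in the endothelial list and 1 in the alveolar type 1 list. Ager, the alveolar type 1 receptor, differed by -0.75 ± 0.25 and Tmem100, an endothelial gene, by -1.65 ± 0.43 (limma adjusted p = 0.0842), both without overlap and without a call. All OVA values lay below all PBS values for 3.23% of all probes tested.

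Of 37 detoxification genes tested, 2 fell and 0 rose, with a median difference of -0.53. Aldh3a1, an aldehyde dehydrogenase of airway epithelium, read -2.33, -2.03, -2.27, -1.94 and -2.52 with OVA and -1.28, -1.10, -0.57, -0.60 and -0.89 with PBS (-1.33 ± 0.23, 2.52-fold lower). Its call was kept in 6 of 10 fits with an array left out. It was lost on the values as deposited, after scaling and after quantile normalization (limma adjusted p = 0.16, 0.293 and 0.2). Fmo2, the flavin monooxygenase of lung, fell by 1.63 on the log2 scale (SE 0.35) at 1 probe; the other read -1.01 ± 0.35 and was not called. Cyp4b1, a cytochrome of club cells, differed by -1.68 ± 0.49 (limma adjusted p = 0.12). The list had 6 calls without OVA replicate 5, 2 without OVA replicate 4, 1 without OVA replicate 2 or 6 or PBS replicate 1 or 3, and 0 without OVA replicate 1 or PBS replicate 2, 4 or 5.

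Dpep1 had the largest fall among called probes that have a gene symbol. It encodes a dipeptidase that breaks down leukotriene D and glutathione conjugates. It read -1.95, -2.25, -1.88, -3.58 and -3.31 with OVA and 0.30, 0.18, -0.21, 0.31 and -0.52 with PBS, a 6.08-fold fall (-2.60 ± 0.38, limma adjusted p = 0.0105). Fabp1, a fatty acid binding protein, read -3.36, -2.34, -2.61, -2.74 and -3.34 against -1.60, -1.37, -1.16, -0.79 and -0.91. Gpihbp1, which holds lipoprotein lipase on capillary endothelium, fell by 1.65 on the log2 scale (SE 0.32). The other 10 of the 15 genes with the largest falls, beside Pon1, Fmo2 and these 3, lay between -1.75 and -1.40. They were Pxdc1, the glutamate receptor subunit Gria1, the homeobox genes Hoxb7 and Six4, and Igfbp2, which binds insulin-like growth factors. The rest were the cochaperone Dnaja4, the troponin Tnnc1, Fgf5, Iyd and Ctnnd2. Of the 15, Dpep1, Fabp1 and Hoxb7 kept the call with each array left out. Fabp1 lost it on the values as deposited, after scaling and after quantile normalization (limma adjusted p = 0.0698, 0.242 and 0.119). Hoxb7 lost it on the values as deposited (limma adjusted p = 0.107).

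Several lists had no call in either direction by limma's test. Neutrophil genes had 0 of 11 called and a median of 0.15, whose sign turned after scaling, after quantile normalization and on the values as deposited (-0.30, -0.40 and -0.02). Ciliated cell genes had 0 of 13 called (median -0.15), with Foxj1, the factor that drives cilia formation, at -0.75 ± 0.50. Alveolar type 2 genes had 0 of 13 (median -0.09), smooth muscle genes 0 of 11 (median -0.39) and fibroblast genes 0 of 15 (median -0.25, and 0.31 after scaling). The smooth muscle list lay between -1.27 and -0.69 on OVA arrays and between -0.58 and -0.19 on PBS arrays. It thus had no overlap, as for the club, endothelial and alveolar type 1 lists. Of its 11 differences 9 were below 0, against 8211 of all 17047 probes. Genes of the secretory machinery of the endoplasmic reticulum had 0 of 30 called (median 0.23) and clock genes 0 of 16. Markers of heart, a tissue that can be taken with the lung, had a median of -0.41, and 12 of 16 probes had differences below 0. They lay between -1.71 and -0.94 in OVA lungs and -0.96 and -0.62 in PBS lungs. Without OVA replicate 2 the heart list had 2 genes called lower. The heart and slow muscle troponin Tnnc1, outside this list, was called lower (-1.47 ± 0.31, limma adjusted p = 0.0434). That call was kept in 1 of 10 fits with an array left out. Whether the amount of heart tissue differed between the groups was not tested. Fat, thymus and cartilage markers had 0 calls. Among immediate early and heat shock genes 0 of 27 were called (median -0.34), against 2 called lower without OVA replicate 5 and 1 called higher without OVA replicate 2; the chaperone Hspa1a, whose near-identical copy Hspa1b may share its signal, read 2.85, 2.00, 2.93, 5.23 and 3.17 in PBS lungs and -0.08, 0.72, 0.59, 1.69 and 0.79 in OVA lungs (-2.50 ± 0.55, limma adjusted p = 0.0503). Over all probes tested, 2696 had an unadjusted p under 0.05.

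Some of the largest rises lay outside the lists above, or in only 1 of several probes of a gene. Atp2a1, the calcium pump of fast skeletal muscle, read 3.24, 1.44, 0.71, 3.44 and 3.06 with OVA and -1.45, -1.63, -2.34, -6 and -1.86 with PBS, a 32.7-fold rise (5.03 ± 0.89, limma adjusted p = 0.0216) that lost its call without OVA replicate 1 (limma adjusted p = 0.0591). The other 7 skeletal muscle genes were not called: the troponin Tnnt3 read between -7.34 and -4.59 with OVA and between -4.33 and -3.73 with PBS. Guca1a, a guanylate cyclase activator known from photoreceptors, rose 22.6-fold (4.5 ± 0.63) and Nadsyn1, the last enzyme of NAD synthesis, 22.4-fold (4.49 ± 0.54); both calls stood with each array left out. Gpr50, an orphan receptor related to melatonin receptors, rose by 4.32 ± 0.93 with OVA values from 1.18 to 5.82, and kept the call in 1 of 10 fits. Sprr2a1, an epithelial envelope protein of a family with close copies, rose by 3.28 ± 0.67, with 1 OVA array at 4.78 and the others between 1.06 and 1.54, and kept the call in 2 of 10 fits. Mrpl3, a protein of the mitochondrial ribosome, rose by 4.06 ± 0.72 at 1 probe and differed by 0.57 ± 0.32, not called, at the other, so its 2 probes disagreed; the called probe kept its call in 6 of 10 fits.

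The genes called here were set beside whole lung of IL-13 animals on the larger array design, where 5 arrays of Stat6+/- lungs were compared with 5 of Stat6-/- lungs. That fit took in 15 arrays, because another group of IL-13 lungs, Stat6-/- with Stat6 in epithelium only, also entered its error estimate. Its number of calls is thus not like for like with that of OVA against PBS. No array is shared, the 2 tables were produced apart, and levels were not compared between them. In that comparison 779 of 16096 probes were called (4.84%), 520 higher with Stat6 (3.23%) and 259 lower (1.61%). Of 217 probes that rose with OVA and were tested there, 76 were called higher with Stat6 (35%) and 0 lower, against 3.71% of the 13034 probes common to both; 88% had the same sign. These 76 were 15.7% of the 483 common probes called higher there. Of 37 probes that fell with OVA, 13 were called lower there (35.1%) and 0 higher, against 1.81% of common probes, and they were 5.51% of 236.

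Of the 8 mucous genes called with OVA, 7 were also called higher with Stat6, and Bpifb1 was not (2.23 with OVA and 1.08 with Stat6, limma adjusted p = 0.158 there). Tff1, not called in either, had opposite signs (-0.25 and 1.47). Clca1 differed by 6.13 with OVA and by 7.58 with Stat6 in IL-13 lungs, Slc26a4 by 3.5 and 6.82, Agr2 by 1.99 and 4.67 and Pigr by 1.23 and 3.72. Arg1 (5.66 and 6.28), Rnase2a (4.73 and 5.04), Retnla (2.87 and 4.92), Mmp12 (3.72 and 6.85) and Saa3 (3.46 and 6.45) were likewise called in both. Among falls, Pon1 (-2.29 and -3.57), Fabp1 (-1.71 and -2.17), Aldh3a1 (-1.33 and -1.66) and Cav1 (-1 and -1.21) were called in both. Other genes were called with OVA and not there. Cxcl9 differed by 3.38 and 0.42, Cxcl11 by 2.73 and -1.49, Fcgr1 by 1.68 and -0.10, Cfb by 1.84 and 0.15, Ms4a1 by 2.02 and -0.48 and Dpep1 by -2.60 and -0.59. Of the 12 cell cycle genes called with OVA, 11 were tested there and had adjusted p between 0.0709 and 0.771. Whether any of these genes differed in size between the comparisons was not tested.

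**Figure D5:**
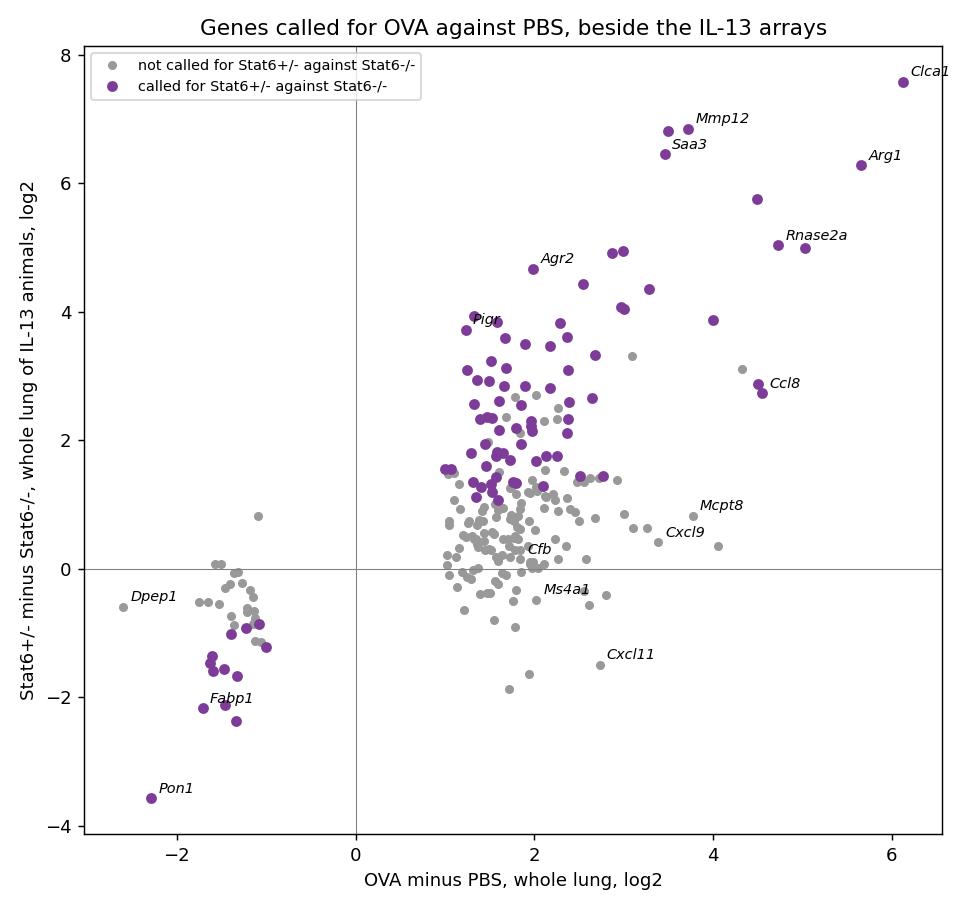
Difference with OVA (x axis, log2) against the Stat6+/- minus Stat6-/- difference in whole lung of IL-13 animals (y axis, log2) for the genes called for OVA against PBS and tested in both. Purple points were also called in the IL-13 comparison. Clca1 and Arg1 lie at the upper right and Pon1 at the lower left, while Cxcl9, Cxcl11, Ms4a1 and Dpep1 lie near or across the zero line of the y axis.

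Amplified RNA of tracheal perfusate was also compared between OVA and PBS on the larger design, with 5 arrays per group. The fit took in all 25 perfusate arrays. IL-13 animals that were Stat6+/-, Stat6-/- or Stat6-/- with Stat6 in epithelium only thus also entered its error estimate. There 40 of 16873 probes were called (0.237%), 29 higher (0.172%) and 11 lower (0.0652%). Of 228 probes that rose in whole lung and were tested there, 9 were called higher (3.95%), against 0.175% of common probes; they made up 37.5% of the 24 called higher there. They were Clca1 (3.39 in perfusate), Saa3 (3.10), Muc5ac (2.81), Atp2a1 (2.36), Nadsyn1 (2.14), Rnase2a (1.88), Slc26a4 (1.66), Mrpl3 (1.41) and Arg1 (1.28). Of 37 probes that fell in whole lung, 0 were called there. Scin, a gene that severs actin filaments and was called in perfusate (2.01), differed by 0.44 ± 0.32 in whole lung and was not called. The chemokines Ccl2, Ccl11 and Cxcl9 had perfusate differences of 0.30, 0.07 and -0.05, none of them called.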

How the data were processed

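The deposited tables hold 1 log2 ratio per spot and array, as the authors gave it. No source used here names their scanner, background correction or normalization. Powers of 2 of all values were ratios with 3 decimals, so the authors' ratios were rounded, from 0.001 to 241. Of 18240 spots, 14857 had 1 gene symbol in the platform annotation, 6 had several and 3377 had none. Each array's values were centred on their median (-0.96 to 0.24 before centring), and spots of 1 accession were averaged. Probes with at least 3 values per group were tested with limma 3.58.1 in R 4.3.3 (lmFit, eBayes, Benjamini-Hochberg over all probes tested, called at an adjusted p under 0.05). All 10 arrays shared 1 reference pool, so no block was used. In the IL-13 and perfusate comparisons the reference preparation was a block. Replicate numbers were not used as pairs, and the titles do not say whether they pair the groups.

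Tested on simulated data for OVA against PBS (17047 probes, 200 of them changed), the test recovered 0% of log2 changes of 1, 54% of 2 and 79% of 3. In the runs with changes of 2 and 3, 6.09% and 5.95% of the calls were false. Each run changed its probes by 1 size with independent noise, so these shares may not carry over to the real data. There, differences as small as those of Laptm5 (1) and Cav1 (-1) were called. Named genes were every called list member, up to 3 uncalled members per list (highest, median and lowest difference), the 15 largest called rises and 15 largest called falls with 1 symbol and at least 4 values per group, and a fixed set of type 2, mucous and lung marker genes. Members and lists were chosen with earlier results of these data known. Close copies (Rnase2a, Sprr2a1, Ccl6 and Ccl9, Hspa1a) may share probe signal. Alternatives were other scalings, missing-value rules, a replicate block, array weights, and each array left out.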

Additional observations from a re-analysis of the deposited data

Results flagged for a closer look

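In 232 groups of 4 or 5 values of named genes, 18 had 1 array far from the rest by Dixon's test, which chance gives in about 1 of 20 groups. OVA replicate 5 held 9 of the 18. It read 2.85 for Clec10a (others 1.72 to 1.98), 4.78 for Sprr2a1 (1.06 to 1.54), 2.71 for Vcan (1.25 to 1.63) and 2.21 for Tgtp1 (1.14 to 1.39). For Il13 it read 2.57 (0.68 to 1.14), for Ctss 3.09 (1.67 to 2.01), for Ctsc 2.51 (1.24 to 1.54), for C1qc 4.55 (2.77 to 3.15) and for Cdk1 3.35 (1.58 to 2.04). It was the highest array in each of these.

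PBS replicate 1 was high for the macrophage genes C1qa (1.5, others 0.44 to 0.63) and Mmp12 (2.97, others 1.28 to 1.69) and for Tgfbi (0.75, others -0.11 to 0.07). PBS replicate 2 was low for Stat6 (-0.18, others 0.26 to 0.38) and PBS replicate 3 for Ccl4 (-2.3, others -0.04 to 0.26). PBS replicate 4 was low for Ccl12 (-0.54, others 0.19 to 0.44), Hpgds (-1.23, others 0.21 to 0.74) and Atp2a1 (-6, others -2.34 to -1.45). PBS replicate 5 was low for Pon1 (-1.7, others -0.28 to 0.29).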

How the results depend on the processing

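No call of the 101 named probes reversed under any alternative. Against 299 probes and 78 list members called higher, the values as deposited gave 36 and 22, array weights 740 and 133, and the replicate block 0 and 0, with 2217 probes at an unadjusted p under 0.05 against 2696 without it. With the arrays left out in turn, between 105 and 308 probes and between 44 and 78 list members were called. The titles do not say whether equal numbers pair the arrays. Deviations of same-numbered arrays correlated at -0.18, -0.12, -0.1 and 0.01, and 0 arrays correlated best with their own number. So few values cannot exclude pairing. With array weights 73.2% of the calls were higher. Outside the replicate block, 21 named probes kept the call in every alternative, among them Clca1, Muc5ac, Arg1, Il4, Ccl8, Cxcl9, Rnase2a and Dpep1. The IL-13 comparison gave 284 calls as deposited, 391 without the reference block and 113 with a replicate block, against 779. The perfusate comparison gave 15 as deposited and 19 without the reference block, against 40. The cause was not tested. Setting ratios of exactly 1 to missing, chosen after seeing the data, gave 315 calls. Spots at exactly 1 numbered 50 to 220 per array, and signal over background is unknown.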

Other observations

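Among the 168 called genes outside the lists, 148 were higher in OVA lungs, and several belong to leukocytes; they were chosen here after their values were seen. They describe single genes and not families, since no list of members was fixed and called genes alone were read. Membrane proteins with names related to Ms4a1 were Ms4a6c (2.02 ± 0.37), Ms4a7 (1.96), Ms4a4b (1.61 ± 0.28), Ms4a6b (1.35), Ms4a8a (1.25) and Ms4a6d (1.1). Leukocyte surface receptors were Slamf6 at 2.25 ± 0.45, Slamf8 at 2.02, Ly9 at 1.65, Cd48 at 1.52 and Slamf9 at 1.43. Of B cell receptor signalling, Cd72 rose by 2.48, the adaptor Blnk by 1.97 ± 0.26 (limma adjusted p = 0.00898) and the kinase Btk by 1.93. Phagocyte genes were Msr1, a scavenger receptor (2.38), Clec7a, a receptor for fungal glucans (2.36 ± 0.32), the oxidase subunits Ncf4 (1.85) and Cybb (1.46), Aif1 (1.74), Itgam (1.58) and Siglec1 (1.39). The cytotoxic protease genes Ctsw and Gzma rose by 1.78 and 1.5, and Tnf by 1.72 ± 0.31.

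Enzymes that break down amino acids were also called: Hal, which removes ammonia from histidine, rose 7.86-fold (2.97 ± 0.3) and Il4i1, an amino acid oxidase induced by IL-4, by 2.68 ± 0.42. The protease inhibitor Serpinb2 rose 9.09-fold, Umod by 2.72, and the clotting factors F10 and F8 by 2.38 and 1.84. Lower in OVA lungs were P4ha1, a collagen prolyl hydroxylase (-1.39), the Notch target Heyl (-1.18), Hamp (-1.15), Id3, an inhibitor of DNA binding (-1.13), and the collagenase Mmp13 (-1.09).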
